A study of Mus musculus with 6 samples.

Results

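Lysosome and autophagy genes were followed in colon cancer organoids exposed to chemotherapy. The group holds 47 genes out of 24190 in the count table, listed by name and function. They are the TFE transcription factors, lysosomal membrane proteins and hydrolases with their cofactors, subunits of the vacuolar proton pump, and the core machinery and receptors of autophagy. Of the 47, 45 passed the filter on low counts, as did 14692 genes in all. The 2 left out, Mitf and Ctss, were almost unread.

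RNA was sequenced from MTO54, a mouse tumor organoid line that the labels call parental and of the AKP genotype, which includes loss of Apc and Trp53. All 6 libraries came from this line, with 3 control libraries in complete stem cell medium and 3 libraries exposed to Folfiri. Folfiri combined 5FU, written in the labels as 50 μg/μl, with SN38 at 100 nM, and was added 2 days after seeding and left on for 2 days per the labels, where a legend of the paper gives a longer exposure. Of these drugs, 5FU blocks thymidylate synthesis and SN38, into which irinotecan is converted, poisons topoisomerase I. A single line is 1 genetic background. A legend of the paper calls the 3 samples per condition biological replicates, but the labels do not say whether they came from separate cultures. The p-values below therefore measure only the spread between these libraries. In bulk RNA, fewer cells of a type and less RNA per cell cannot be told apart.

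The lysosome is an acidic compartment in which hydrolases break down proteins, sugars and lipids that arrive by endocytosis or autophagy. Its pH is set by the V-ATPase, a proton pump made of a membrane sector (V0) and a cytosolic sector that hydrolyses ATP (V1). In autophagy, a membrane coated with ATG8-family proteins (LC3 and GABARAP) closes around cargo chosen by receptors such as p62 and fuses with lysosomes. TFEB, TFE3 and MITF are related factors that enter the nucleus when mTORC1 is inactive and bind the CLEAR element, an extended E-box found near the start of many lysosomal genes.

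That element gave a way to show the regulatory sequence of the genes measured here. RefSeq promoters on GRCm38.p6, each from 250 bases before to 50 bases after a gene start, were found for 37 of the 47 genes. A gene can have several annotated starts, with 46 promoters in all for the 37 genes, so a window can lie inside the gene, as those of Atg7 and Atg14 do. The promoters were searched on both strands for CACGTG, for the longer TCACGTGA and GTCACGTG, and for GTCACGTG followed by AC. The longer words all contain the first, and TCACGTGA and GTCACGTG can overlap, as in the Ctsa window. CACGTG was present in 13 of the 37 genes (35.1%), against 11.5% of 10473 tested genes with a promoter and 7.15% of all 32851 promoters. TCACGTGA was present in 6 of the 37 (16.2%), against 2.14% of the tested genes and 0.974% of all promoters. GTCACGTG was found in 9 (24.3%), against 4.59% and 2.25%, and GTCACGTG followed by AC in 0 of the 37, against 0.773% and 0.326%. Windows of 30 bases around a match follow, to set the letters beside the measured outcome of each gene, read 5′ to 3′ on the strand of the gene, with 1 longest match in capitals. The first 7 are from genes that were lower after Folfiri, the next pair from genes that did not pass the test, and the last 3 from genes that were higher.
Ctsa (chr2:164833749-164833778, plus strand): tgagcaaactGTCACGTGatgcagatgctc
Ctsd (chr7:142387908-142387937, minus strand): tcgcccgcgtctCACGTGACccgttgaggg
Gla (chrX:134601215-134601244, minus strand): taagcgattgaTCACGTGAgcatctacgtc
Glb1 (chr9:114401018-114401047, plus strand): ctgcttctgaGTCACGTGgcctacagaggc
Atp6v0d1 (chr8:105566050-105566079, minus strand): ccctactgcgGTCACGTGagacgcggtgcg
Atp6v1a (chr16:44139373-44139402, minus strand): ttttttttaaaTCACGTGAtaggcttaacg
Atg7 (chr6:114670952-114670981, plus strand): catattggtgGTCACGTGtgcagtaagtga
Lamp1 (chr8:13159121-13159150, plus strand): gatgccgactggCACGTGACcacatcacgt
Mcoln1 (chr8:3500462-3500491, plus strand): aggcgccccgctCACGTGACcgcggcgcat
Ctsl (chr13:64370739-64370768, minus strand): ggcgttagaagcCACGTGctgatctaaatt
Atg5 (chr10:44268313-44268342, plus strand): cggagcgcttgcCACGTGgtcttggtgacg
Atg14 (chr14:47568418-47568447, minus strand): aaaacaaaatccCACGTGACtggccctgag
Among the 13 genes with CACGTG, 3 were higher (23.1%) and 8 lower (61.5%) after Folfiri, and of the 22 tested genes of the group whose promoters lack it 22.7% were higher and 45.5% lower. The 6 with TCACGTGA were Mcoln1, Ctsa, Ctsd, Gla, Atp6v0d1 and Atp6v1a, of which 5 were lower and Mcoln1 did not pass. Of the 29 tested genes of the group without TCACGTGA, 27.6% were higher and 44.8% lower. Over all 224 tested genes with TCACGTGA, 43.3% were higher and 35.3% lower. Over all 1207 tested genes with CACGTG in the promoter, 47.3% were higher and 35.0% lower. A match describes the letters in the window and says nothing of binding.

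Between 22103591 and 30098210 reads were counted per library. Mitochondrial genes took 2.09 to 2.36% of reads in the controls and 3.95 to 4.44% after Folfiri. Control replicate 1 stood apart from the other controls, with a chi-square per degree of freedom of 25.3 and 23.9 against control replicates 2 and 3, compared with 4.03 between those. Folfiri replicate 3 gave 13.3 and 12.8 against Folfiri replicates 1 and 2, compared with 3.76 between those. The summed level of the 47 genes was 6242, 7268 and 7197 CPM (the read count scaled to a common library size, here after TMM, which sets library sizes by the bulk of genes) in the controls and 5910, 5954 and 6121 in the Folfiri libraries. Scaled by total counts alone, the order turned, with 6025, 6407 and 6332 in the controls and 6539, 6543 and 6703 in the Folfiri libraries. Control replicate 1 was the lowest control for 36 of the 45 tested genes (80.0%), against 41.4% of all genes tested. The epithelial identity of the line was read from 10 markers, of which 9 were at 1 CPM or more in both groups and Cdx1 was near 0. Of the 9, 5 were lower after Folfiri (Lgals4, Cdx2, Epcam, Krt19 and Krt8) and Cdh1 was higher, and the summed level went from 6650 ± 514 to 4823 ± 90.7 CPM (SD, n = 3). Macrophage and leukocyte markers, which matter because cathepsins and Cd63 are abundant in macrophages, summed to 7.68 to 9.22 CPM in controls and 16.1 to 17.2 CPM after Folfiri, mostly from Cd14. Cd14 was called higher, as were Ptprc (0.396 CPM in controls and 1.06 CPM after Folfiri), Adgre1 (0.226 and 0.863 CPM) and Fcer1g (0.0819 and 0.537 CPM). Mrc1 did not pass, and the other markers of this list were not tested. C1qa and C1qb were not listed in the count table. Fibroblast markers summed to 1.08 to 1.44 CPM in controls and 2.06 to 2.45 CPM after Folfiri. Within that sum Dcn and Pdgfra were called higher and Col1a1 lower, from 0.842 to 0.301 CPM. The part of these mitochondrial and marker differences in the results was not tested.

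As a whole, the lysosome and autophagy genes moved moderately and more often down than up. With edgeR's quasi-likelihood test at an adjusted p of 0.05, 35 of the 45 genes changed (77.8%), against 79.1% of all genes tested, so the share that changed was near the background. Higher after Folfiri were 11 (24.4%), against 40.3% of all genes, and lower were 24 (53.3%), against 38.8%. Only 6 genes passed the test with a change of at least 2-fold (13.3%), against 36.3% of all genes, and all 6 were lower: the hydrolases Glb1, Neu1 and Asah1, the cholesterol carrier Npc2, the proton pump subunit Atp6v0d1 and the autophagy membrane protein Atg9a. The libraries of the groups did not overlap for 37 of the 45 genes, against 81.4% of all genes. The median log2 fold change was -0.23, against 0.02 over all genes, and the median absolute change was 0.42, against 0.73. These genes were well expressed, with a median level of 93.6 CPM, against 22.4 CPM over all genes tested.

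**Figure D1:**
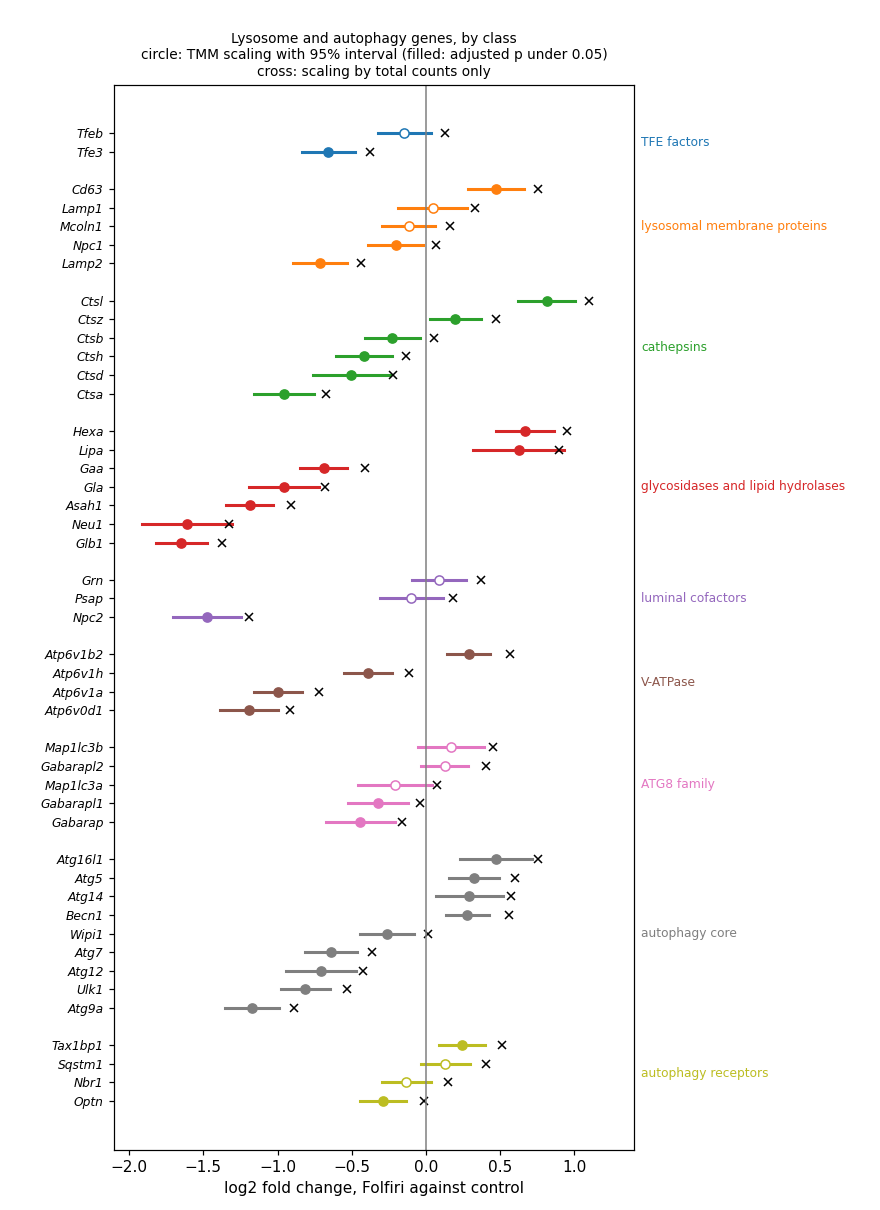
Log2 fold change (Folfiri minus control, x axis) of the 45 tested genes by class, as circles with 95% confidence intervals, filled where the adjusted p was under 0.05, and crosses for the same genes scaled by total counts. The 24 filled circles left of 0 include most hydrolases, the 11 right of 0 include Ctsl at 0.82, and the crosses sit to the right of the circles.

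The direction of some genes depended on scaling. TMM factors were 0.880 to 0.966 in the controls and 1.10 to 1.11 in the Folfiri libraries. Scaling by total counts alone moved the median of all genes from 0.02 to 0.30, a shift of 0.28, and the median of the 45 genes from -0.23 to 0.05. Calls then became 17 higher and 15 lower, so 53.1% of calls were higher in place of 31.4%, while over all genes the share of higher calls went from 51.0% to 63.3%. Of the genes at least 2-fold lower, Asah1 (-0.91), Atp6v0d1 (-0.92) and Atg9a (-0.89) then fell short of 2-fold. Glb1, Neu1 and Npc2 stayed at least 2-fold lower, and Ctsl became more than 2-fold higher (1.10). Relative to the median of all genes, the lysosome and autophagy genes lay at -0.25, and this value stayed between -0.32 and -0.23 over 14 alternatives. Those that only change the scaling shift all genes by about the same amount. They could therefore hardly move this value and are no test of it. A total of 6 of the 11 higher calls (Cd63, Ctsl, Hexa, Lipa, Atg5 and Atg16l1) held in all 14. Of the 24 lower calls, 14 did so (Tfe3, Lamp2, Ctsa, Gaa, Gla, Glb1, Neu1, Asah1, Npc2, Atp6v0d1, Atp6v1a, Ulk1, Atg9a and Atg12). Exons of 17 of the 47 genes overlap a gene on the opposite strand, and those of 4 overlap one on the same strand. Their counts are uncertain to that extent.

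**Figure D2:**
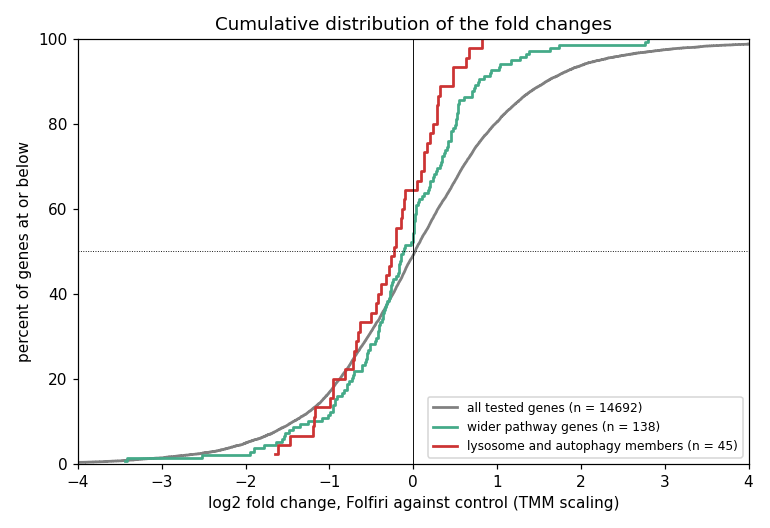
Cumulative share of genes (y axis) against log2 fold change (Folfiri minus control, x axis) for all 14692 genes tested, 138 other lysosome and autophagy pathway genes and the 45 tested members of the group. The curve of the 45 genes is the steepest and reaches its middle at -0.23, left of 0.02 for all genes.

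Among the TFE factors, Tfe3 fell while Tfeb did not pass the test and Mitf was almost absent. Tfe3 was at 51.8, 56.1 and 52.8 CPM in the controls and 36.0, 34.1 and 31.7 CPM after Folfiri, with every Folfiri library below every control (log2 fold change -0.66, SE 0.08, edgeR adjusted p = 2.10e-05). Tfeb was at 25.03, 23.8 and 23.6 CPM in the controls and 22.5, 21.2 and 21.8 CPM after Folfiri. The libraries did not overlap, yet the log2 change of -0.15 had a 95% confidence interval of -0.32 to 0.03 (edgeR adjusted p = 0.116), and it was 0.13 under total counts. Mitf, which drives melanocyte and osteoclast programs, had 0, 0 and 0 reads in the controls and 1, 3 and 0 reads after Folfiri, at or under the floor of 3 counts in each library, so no fold is given.

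TFE factors are held in the cytosol by mTORC1 at the lysosome surface, through the Rag GTPases, the Ragulator complex (Lamtor1 to Lamtor5) and folliculin, and are released by calcineurin. Of 20 genes of this signalling list tested, 3 were higher (15%) and 9 lower (45%), against 40.3% and 38.8% of all genes. Rragb rose from 0.214 ± 0.119 to 1.42 ± 0.459 CPM (SD, n = 3), a log2 change of 2.76 at a low level. Flcn, the folliculin gene that activates RagC and RagD, rose by 0.53 on the log2 scale. Lamtor4 and Ppp3cb, a catalytic subunit of calcineurin, fell by 0.99 and 0.79 on the log2 scale. Mtor itself was at 42.0 CPM in the controls and 42.9 CPM after Folfiri and did not pass the test.

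Lysosomal membrane proteins split, with Lamp2 lower, Cd63 higher and Lamp1 not past the test. Lamp2, the LAMP protein needed for chaperone-mediated autophagy in its A isoform, was at 460, 508 and 537 CPM in the controls and 296, 317 and 303 CPM after Folfiri (log2 fold change -0.72, SE 0.08, edgeR adjusted p = 1.30e-05). Every Folfiri library was below every control. Cd63, a tetraspanin of late endosomes and exosomes, was at 133, 156 and 145 CPM in the controls and 191, 193 and 219 CPM after Folfiri, again with no overlap (0.47, SE 0.08, edgeR adjusted p = 0.00037). Lamp1, the most abundant of the 47 genes per length, was at 458, 595 and 583 CPM in the controls and 533, 577 and 579 CPM after Folfiri. The low control was replicate 1, the groups overlapped, and the log2 change of 0.05 (95% confidence interval -0.19 to 0.28, edgeR adjusted p = 0.692) was -0.06 without that library. Under total counts Lamp1 was at 0.33 and passed as higher. Lamp1 shares exon bases with Grtp1 on the other strand. Npc1, the cholesterol exporter of the limiting membrane, fell by 0.21 on the log2 scale with an edgeR adjusted p of 0.043, but was 0.07 under total counts and lost its call without control replicate 1 or 3 or without Folfiri replicate 1 or 3. Mcoln1, the calcium channel that activates calcineurin, was at -0.12 and did not pass, at 0.16 under total counts, and at -0.17, past the test, without control replicate 1. With genomic span as an offset Mcoln1 was at -0.32.

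The ratio of Lamp2 to Lamp1 reads within a library does not depend on scaling. It was 1.004, 0.854 and 0.922 in control libraries and 0.555, 0.550 and 0.523 in Folfiri libraries, a pair that was chosen after the values were seen. In the wider list of 15 other membrane proteins, 6 were higher (40%) and 4 lower (26.7%), against 40.3% and 38.8% of all genes. Clcn7, the chloride-proton exchanger of the lysosome, rose from 19.8 ± 1.02 to 61.2 ± 0.990 CPM (SD, n = 3), a log2 change of 1.63. Ctns, which exports cystine, rose by 1.27 on the log2 scale. Laptm4b, a transmembrane protein of late endosomes, fell by 1.44 on the log2 scale, from 263 to 97.3 CPM, and the potassium and proton channel Tmem175 by 0.71. Of the wider genes named here and further on, Tmem175, Atp6v0a2, Arsa, Gga3, Sort1, Snap29, Rb1cc1 and Bnip3 overlap a gene on the other strand.

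**Figure D3:**
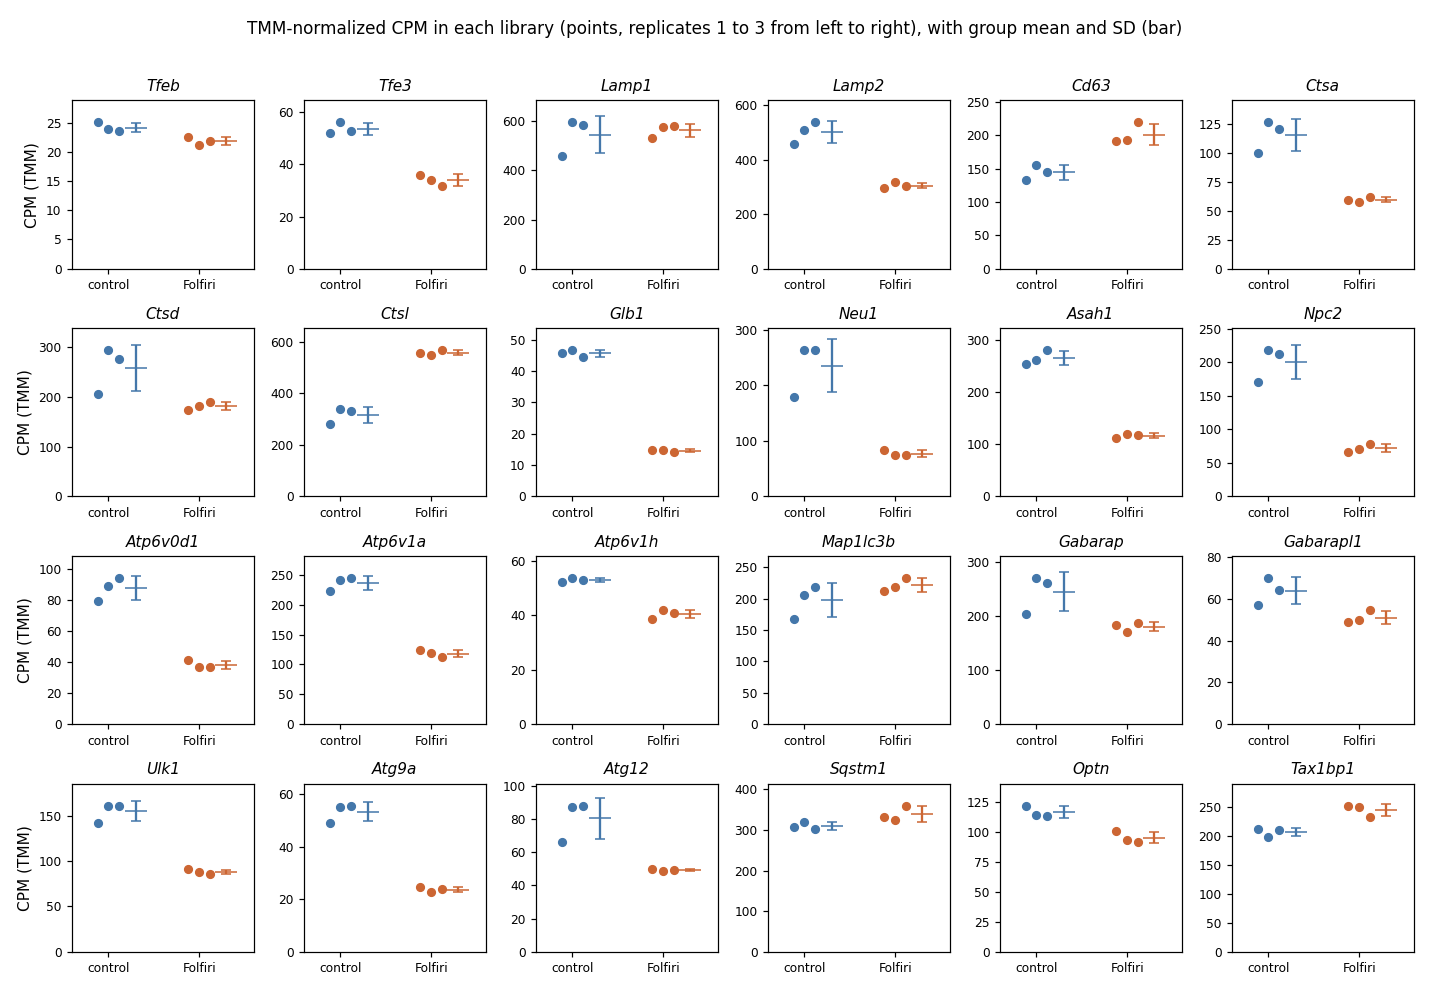
Level in CPM after TMM scaling (y axis) of 24 of the genes given per library, with points for the 3 control and 3 Folfiri libraries and the mean with SD. Glb1, Neu1, Asah1 and Npc2 show no overlap between groups, whereas the points of Lamp1 and Map1lc3b do overlap.

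Of the 4 V-ATPase genes, 3 were lower and 1 higher, where 38.8% of all genes were lower and 40.3% higher. Atp6v0d1 (ENSMUSG00000013160, chr8:105524465-105566047, GRCm38), the d subunit that joins the rotor to the membrane ring, was at 79.5, 89.1 and 94.2 CPM in the controls and 41.3, 36.9 and 36.6 CPM after Folfiri (log2 fold change -1.20, SE 0.09, edgeR adjusted p = 5.26e-07). Atp6v1a, the catalytic A subunit, was at 223, 241 and 245 CPM in the controls and 123, 120 and 112 CPM after Folfiri, and fell by 0.999 on the log2 scale (SE 0.07, edgeR adjusted p = 4.97e-07). In both genes the Folfiri libraries lay well below all controls, and their promoters hold TCACGTGA as shown above. Atp6v1h, which couples V1 to V0, was at 52.3, 53.7 and 53.1 CPM in the controls and 38.8, 42.0 and 40.7 CPM after Folfiri (-0.39, SE 0.07, edgeR adjusted p = 0.000465). That call did not hold under total counts, at -0.11, nor with genomic span as an offset, at -0.16, and the gene shares exon bases with Rgs20 on the other strand. Atp6v1b2, the B subunit that alternates with A in the ATPase ring, rose by 0.29 on the log2 scale (edgeR adjusted p = 0.00209), from 189, 201 and 200 CPM to 238, 239 and 243 CPM, and was at 0.15, short of the threshold, with genomic span as an offset.

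Because A and B subunits share 1 ring, their reads were compared within libraries, a pair chosen after the values were seen. The ratio of Atp6v1a to Atp6v1b2 reads was 1.18, 1.20 and 1.22 in control libraries and 0.518, 0.501 and 0.461 in Folfiri libraries. The controls lay close together and no Folfiri library came near them. Of 18 other subunits and accessory proteins tested, 9 were higher (50%) and 7 lower (38.9%), against 40.3% and 38.8% of all genes. The d2 isoform Atp6v0d2 rose from 1.16 ± 0.200 to 3.83 ± 0.649 CPM (SD, n = 3), a log2 change of 1.74, and Atp6v0a2, an isoform of the a subunit, rose by 1.04 on the log2 scale. Atp6v1g1 of the stator fell by 1.25 on the log2 scale and the accessory protein Atp6ap1 by 0.94. Even after its fall, Atp6v0d1 at 38.2 CPM remained above Atp6v0d2.

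Cathepsins, the lysosomal proteases, all passed the test among the 6 measured, with 2 higher and 4 lower, where 79.1% of all genes passed, 40.3% higher and 38.8% lower. Ctsl, a cysteine endopeptidase, was the largest rise in the group, at 281, 337 and 332 CPM in the controls and 555, 549 and 567 CPM after Folfiri (log2 fold change 0.82, SE 0.09, edgeR adjusted p = 7.85e-06). All Folfiri libraries were above all controls, and the gene shares exon bases with Gm47123 on the other strand and Gm49230 on the same strand. Ctsa, the protective protein that stabilises beta-galactosidase and neuraminidase, was at 100, 127 and 121 CPM in the controls and 59.8, 57.7 and 61.99 CPM after Folfiri (-0.96, SE 0.09, edgeR adjusted p = 3.62e-06). Its exons overlap Neurl2 and Pltp on the other strand, and the groups were apart. Ctsd, the main aspartic protease, was at 207, 295 and 276 CPM in the controls and 175, 183 and 190 CPM after Folfiri (-0.50, SE 0.12, edgeR adjusted p = 0.00224). The lowest control, replicate 1, was still above every Folfiri library, but under total counts Ctsd was at -0.22 and no longer passed. Ctsd overlaps Gm49369 on the same strand.

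Ctsh, an aminopeptidase, was at 280, 328 and 319 CPM in the controls and 220, 226 and 248 CPM after Folfiri (-0.42, SE 0.08, edgeR adjusted p = 0.000928), with no overlap. That call was also lost under total counts, at -0.14. Ctsb fell by 0.23 on the log2 scale, turned to 0.05 under total counts, and lost its call without control replicate 2 or 3 or without Folfiri replicate 1 or 2. Ctsz rose by 0.20, and its call was lost without control replicate 2 or 3 or without Folfiri replicate 2 or 3. Ctss, a cathepsin of antigen-presenting cells, had 0 reads in every control and 3, 1 and 2 reads after Folfiri, at or under the floor. The cathepsin level summed over the class was 1481 ± 148 CPM in the controls and 1488 ± 56.3 CPM after Folfiri (SD, n = 3). Scaled by total counts alone it was 1342 ± 70.4 and 1636 ± 54.2 CPM, with no overlap between groups. The ratio of Ctsl to Ctsd reads, chosen after the values were seen, was 1.36, 1.145 and 1.20 in control libraries and 3.18, 3 and 2.98 in Folfiri libraries.

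Glycosidases and lipid hydrolases had the largest median change of the classes, at -0.96. All 7 passed the test, as did 79.1% of all genes, with 5 lower (71.4%) and 2 higher (28.6%), against 38.8% and 40.3% of all genes. The summed level of the class went from 695 ± 65.0 to 342 ± 2.30 CPM (SD, n = 3). Glb1 (ENSMUSG00000045594, chr9:114401076-114474898), the lysosomal beta-galactosidase, showed the largest change of the 47 genes. It was at 45.8, 46.7 and 44.5 CPM in the controls and 14.7, 14.9 and 14.1 CPM after Folfiri, 3.13-fold lower (log2 fold change -1.65, SE 0.08, edgeR adjusted p = 2.67e-08). The spread within either group was far smaller than the gap, and the gene shares exon bases with Tmppe on the same strand. Neu1 (ENSMUSG00000007038, chr17:34931253-34935953), the neuraminidase that works in a complex with the Ctsa and Glb1 products, was at 179, 263 and 263 CPM in the controls and 83.4, 73.6 and 73.6 CPM after Folfiri. The fall was 3.06-fold (-1.61, SE 0.14, edgeR adjusted p = 1.39e-06), with control replicate 1 the lowest control. All members of that complex in the group, Glb1, Neu1 and Ctsa, were therefore lower.

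Asah1 (ENSMUSG00000031591, chr8:41340197-41374773), the acid ceramidase, was at 253, 261 and 280 CPM in the controls and 111, 120 and 117 CPM after Folfiri (-1.19, SE 0.07, edgeR adjusted p = 1.36e-07). No library of 1 group came near the other. Gla, alpha-galactosidase A, was at 17.1, 20.3 and 20.1 CPM in the controls and 9.26, 10.5 and 9.86 CPM after Folfiri, a log2 change of -0.96 with an edgeR adjusted p of 1.21e-05. Gaa, which digests glycogen in lysosomes, fell from 84.6 ± 3.01 to 52.5 ± 2.36 CPM (SD, n = 3), a log2 change of -0.69. The rises were Hexa, the alpha subunit of beta-hexosaminidase, from 41.3 ± 3.54 to 65.7 ± 4.49 CPM (0.67), and Lipa, the acid lipase, from 4.36 ± 0.357 to 6.72 ± 0.751 CPM (0.62). The groups did not overlap for any of the 7 genes, as for 81.4% of all genes. Hexa shares exon bases with Tmem202 on the other strand.

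Among 31 other hydrolases, 9 were higher (29%) and 14 lower (45.2%), against 40.3% and 38.8% of all genes. The largest falls were Naglu, an enzyme of heparan sulfate breakdown, at 33.2, 25.2 and 24.1 CPM in the controls and 2.18, 2.78 and 2.67 CPM after Folfiri (log2 fold change -3.43), and Arsa, which removes sulfate from sulfatides (-2.52). Those changes were larger than any among the 47 genes. Ctsf rose by 1.02 on the log2 scale at about 1 CPM, and Gm2a, the activator that presents GM2 ganglioside to beta-hexosaminidase, rose by 0.79.

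**Figure D4:**
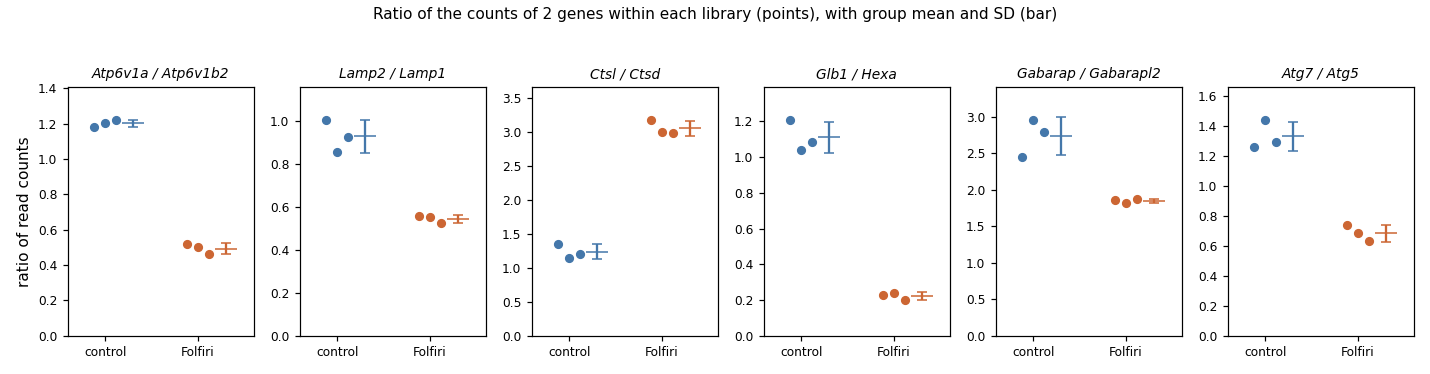
Ratio of read counts within each library (y axis) for 6 pairs of genes with related functions, picked after their values were seen so that the groups are apart, with points for the 3 control and 3 Folfiri libraries. The ratio of Atp6v1a to Atp6v1b2 goes from 1.20 to 0.493 and that of Ctsl to Ctsd from 1.24 to 3.05 on average.

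Luminal cofactors were led by Npc2 (ENSMUSG00000021242, chr12:84754562-84773152), the soluble carrier that hands cholesterol to NPC1. It was at 171, 218 and 212 CPM in the controls and 66.8, 70.6 and 78.9 CPM after Folfiri, 2.78-fold lower (log2 fold change -1.47, SE 0.10, edgeR adjusted p = 3.82e-07). The groups were well apart. Psap, the precursor of the saposins, went from 432 ± 52.3 to 403 ± 13.9 CPM and Grn, progranulin, from 168 ± 16.5 to 178 ± 2.24 CPM (SD, n = 3), and neither passed. The log2 change of Psap was -0.10, with an edgeR adjusted p of 0.359. Without control replicate 1, Psap was at -0.19 and passed, and under total counts it was at 0.18 and passed in the other direction, while Grn passed at 0.37. Hydrolases reach lysosomes through the mannose 6-phosphate tag, and of 9 genes for that route 3 were higher and 3 lower (33.3% each), against 40.3% and 38.8% of all genes. Gga3, a sorting adaptor, rose by 1.38 on the log2 scale, Nagpa, which uncovers the tag, by 1.34, and the sorting receptor Sort1 fell by 0.74. The adaptor Gga1 fell by 0.37, a call that was lost under total counts, at -0.09. The receptor M6pr was at 192 CPM in the controls and 189 CPM after Folfiri and did not pass.

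In the autophagy core all 9 genes passed the test, 4 higher (44.4%) and 5 lower (55.6%), where 40.3% of all genes were higher and 38.8% lower. Ulk1, the initiating kinase, was at 142, 161 and 161 CPM in the controls and 90.6, 87.7 and 85.9 CPM after Folfiri (log2 fold change -0.81, SE 0.07, edgeR adjusted p = 2.34e-06). Atg9a (ENSMUSG00000033124, chr1:75180860-75192196), the scramblase whose vesicles seed the autophagosome, was at 49.3, 55.3 and 55.7 CPM in the controls and 24.6, 22.8 and 23.8 CPM after Folfiri (-1.17, SE 0.08, edgeR adjusted p = 3.76e-07). In both genes every Folfiri library was below every control, and Atg9a shares exon bases with Ankzf1 on the other strand and Gm29253 on the same strand. Atg12, the ubiquitin-like protein joined to ATG5, was at 66.2, 86.9 and 88.03 CPM in the controls and 49.8, 48.5 and 49.2 CPM after Folfiri (-0.71, SE 0.11, edgeR adjusted p = 0.000103). Atg7, the enzyme that activates it, went from 41.3 ± 1.86 to 26.5 ± 1.17 CPM (SD, n = 3), a log2 change of -0.64 that was -0.09, and no longer passed, with the genomic span of genes as an offset. Wipi1, a phosphoinositide-binding scaffold, fell by 0.26 but was at 0.02 under total counts, and lost its call without control replicate 2 or Folfiri replicate 2.

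Of the 4 core genes that rose, Atg16l1 changed most. This gene, which places the conjugation enzyme on the membrane, was at 36.7, 45.2 and 51.4 CPM in the controls and 60.1, 62.8 and 61.9 CPM after Folfiri, a log2 change of 0.47. Atg5, its partner, rose by 0.32, from 31.5, 30.03 and 31.7 CPM to 37.7, 37.9 and 40.9 CPM. Becn1 and Atg14, both of the class III PI3-kinase complex, rose by 0.28 and 0.29, with Cntd1 and Gm49004 overlapping them on the other strand. With genomic span as an offset they were at 0.095 and 0.21 and no longer passed, and Atg14 also lost its call without Folfiri replicate 2. No library of the groups overlapped for these genes. The ATG12-ATG5-ATG16L1 conjugate thus had Atg12 lower and its partners higher. Of 32 other machinery genes, 14 were higher and 14 lower (43.8% each), near the shares of all genes. Snap29 and Rb1cc1, for autophagosome fusion and the ULK complex, rose by 0.92 and 0.84 on the log2 scale. Atg10, the conjugating enzyme for ATG12, fell by 1.90 at a low level, from 2.82 to 0.750 CPM. Vmp1, an endoplasmic reticulum scramblase, went from 617 ± 42.8 to 211 ± 5.93 CPM (SD, n = 3), a log2 change of -1.55, with Mir21a in its exons on the same strand.

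Of the 5 ATG8-family genes, 2 passed the test, both of the GABARAP branch and both lower, where 79.1% of all genes passed. Gabarap was at 204, 271 and 262 CPM in the controls and 183, 172 and 187 CPM after Folfiri (log2 fold change -0.44, SE 0.10, edgeR adjusted p = 0.00252). Gabarapl1 was at 57.3, 70.1 and 64.5 CPM in the controls and 48.7, 50.1 and 54.5 CPM after Folfiri (-0.32, SE 0.09, edgeR adjusted p = 0.00686). Neither overlapped between groups, and neither passed under total counts, at -0.16 and -0.04. Map1lc3b, the LC3 gene most used to follow autophagy, was at 167, 205 and 219 CPM in the controls and 212, 219 and 233 CPM after Folfiri. The groups overlapped and the log2 change of 0.17 (95% confidence interval -0.05 to 0.39, edgeR adjusted p = 0.139) did not pass. Under total counts Map1lc3b was at 0.45 and passed. The gene shares exon bases with Zcchc14 on the other strand, as Gabarapl1 does with 1700101I11Rik. Gabarapl2, at 0.13, and Map1lc3a, at -0.21, did not pass either, though Map1lc3a was at -0.33 and passed without control replicate 1 and Gabarapl2 was at 0.41 and passed under total counts. The ratio of Gabarap to Gabarapl2 reads, chosen after the values were seen, went from 2.73 ± 0.261 to 1.85 ± 0.0287 (SD, n = 3).

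Among the autophagy receptors, Optn was lower, Tax1bp1 higher, and Sqstm1 and Nbr1 did not pass. Sqstm1, which encodes p62, was at 308, 319 and 302 CPM in the controls and 333, 325 and 360 CPM after Folfiri. Each Folfiri library was above each control, but the log2 change of 0.13 had an edgeR adjusted p of 0.12, and under total counts it was 0.41 and passed. Optn, a receptor for mitochondria and bacteria, was at 122, 114 and 113 CPM in the controls and 101, 93.7 and 91.9 CPM after Folfiri (-0.29, SE 0.07, edgeR adjusted p = 0.00313), and at -0.01 under total counts. Tax1bp1, a receptor of aggregates, was at 212, 199 and 211 CPM in the controls and 253, 249 and 232 CPM after Folfiri (0.24, SE 0.07, edgeR adjusted p = 0.00853). The groups were apart in both, and Tax1bp1 lost its call without control replicate 2. Nbr1, the p62-related receptor, was at -0.13, at 0.15 under total counts, and at -0.16, past the test, without control replicate 1. Sqstm1, Optn and Tax1bp1 share exon bases with Mrnip, 4930551O13Rik and Gm43966 on the other strand.

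**Figure D5:**
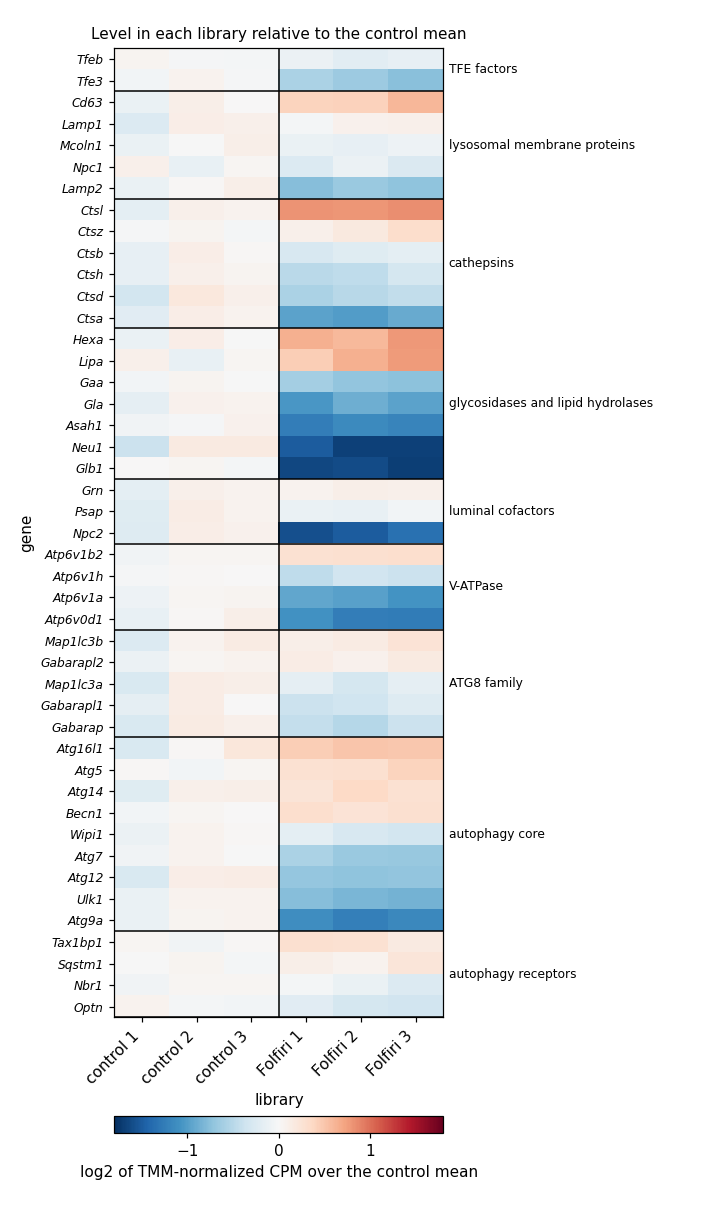
Level of the 45 tested genes in each of the 6 libraries as log2 of CPM over the control mean (colour), ordered by class. Glb1, Neu1 and Npc2 are among the most decreased in the Folfiri libraries, Ctsl, Hexa and Lipa among the most increased, and control replicate 1 is below the other controls for 36 of the 45 genes.

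Per length, as RPKM (CPM per kilobase of exon), the order of levels in the controls began with Lamp1 at 204, Psap at 157, Gabarap at 133, Ctsd at 110 and Ctsz at 109. After Folfiri, Lamp1 at 211 and Psap at 147 still led, followed by Ctsz at 125, Sqstm1 at 101 and Gabarap at 98.0. Ctsd and Ctsz did not differ beyond their spread in the controls. Asah1 went from place 7 to place 14. Lipa, at 0.643 in the controls and 0.990 after Folfiri, was the lowest of the tested genes.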

How the data were processed

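RNA was measured in 6 libraries of 1 organoid line, prepared from poly(A) RNA with a kit that does not mark strand, so reads of genes that overlap on opposite strands cannot be told apart. Per the paper's methods, the authors aligned reads with STAR (version 2.5.2 in the submitters' processing notes) to the mouse genome with GENCODE vM25, and counted reads per gene with Rsubread. The deposited values are raw counts per gene, with no normalization. The strand setting and the treatment of reads with several positions are not given in the sources used here. Symbols, spans and positions came from GENCODE vM21 on GRCm38, which matched 24168 of 24190 gene IDs. Promoters came from RefSeq.

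Counts were fitted in R 4.3.3 with edgeR 4.0.16, using filterByExpr, TMM factors and the quasi-likelihood test on all 14692 genes kept, with Benjamini-Hochberg adjustment over all of them and a threshold of 0.05. Samples were grouped by their labels, and the fit had no covariate. CPM are TMM-scaled, and reads per kilobase use exonic length. Floors of 3 counts (0.0910 to 0.154 CPM) cover counting error only. The procedure was tested on simulated data with 14466 genes, in which 189 of 200 changed genes were recovered and 8 unchanged genes were called. It was not tested with a share of changed genes as large as the 79.1% called here.

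The 47 genes, their classes and the wider and marker lists were chosen with earlier results of these data known. Values per library were given for the TFE factors, Lamp1, Ctsd, Sqstm1 and Map1lc3b, and for the genes of each class (at most 3) that passed the threshold with separate groups and changed most; values per library of other genes were added after they were seen. From each wider list, up to 2 genes per direction with at least 1 CPM in a group were named by the same rule, and others are said to be chosen later or are given as reference genes of a pathway (Mtor, M6pr). Scaling was also done with upper quartile factors, by total counts only and with DESeq2 size factors. Other alternatives were no filter, at least 1 CPM in 3 samples, DESeq2 1.42.0's Wald test, a replicate block, genomic span as an offset, and each library left out in turn. Results for some genes are not reported here.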

Additional observations from a re-analysis of the deposited data

How the results depend on the processing

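Of the 45 tested genes, 31 to 38 were called when 1 library was left out, 35 with DESeq2's Wald test and 33 with the replicate number as a replicate block (10 higher and 23 lower). Same-numbered libraries did not deviate together (correlations 0.0267, -0.117 and 0.0393). With so few libraries per group, these values cannot decide whether the numbers pair the samples, which the labels do not say. The number of all genes called was 11623, and 11021 to 12312 with 1 library left out. The median of all genes was -0.0064 with no filter on low counts.

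Of the settings run, scaling by total counts changed the most counts. Higher members became 17 and lower members 15, the median of the members turned to 0.0532, and lower genes of the wider lists went to 38. By class, higher calls became 2 each for membrane proteins, luminal cofactors, ATG8 family and receptors, and lower calls became 1 each for membrane proteins and cathepsins and 0 each for ATG8 family and receptors. Turned in sign were Tfeb (0.13), Mcoln1 (0.16), Npc1 (0.068), Ctsb (0.05), Psap (0.18), Map1lc3a (0.0722), Wipi1 (0.0162) and Nbr1 (0.15). Upper quartile factors gave 1 lower membrane protein, and 2 higher each for ATG8 family and receptors. With no filter, 1 cathepsin was higher. The replicate block gave 1 lower membrane protein and 1 higher cathepsin.

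With genomic span as an offset, 7 members were higher, with 1 cathepsin, 0 V-ATPase and 2 core genes among them, and 2 lower luminal cofactors and 2 lower receptors. Lamp1 (-0.14), Ctsz (-0.016), Map1lc3a (0.0706), Gabarapl2 (-0.0891) and Sqstm1 (-0.0821) turned in sign. Leaving out 1 library gave 1 to 2 lower membrane proteins, 1 to 2 higher cathepsins, 1 to 2 lower luminal cofactors, 0 to 1 higher receptors and 1 to 2 lower receptors, and Lamp1 from -0.0634 to 0.11, negative without control replicate 1. The cause of these changes was not tested beyond the settings themselves. Depth limits Mitf and Ctss, for which no difference was detectable.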

Other observations

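A wider list held further receptors of selective autophagy. Of 13 tested, 3 were higher (23.1%) and 8 lower (61.5%), against 40.3% and 38.8% of all genes, and their summed level went from 1932 ± 149 to 982 ± 18.8 CPM (SD, n = 3). The largest falls on this list were in the mitochondrial receptors Bnip3 and Bnip3l. Bnip3 was at 259, 258 and 270 CPM in the controls and 30.4, 21.4 and 21.7 CPM after Folfiri (log2 fold change -3.42), and Bnip3l went from 595 ± 71.5 to 154 ± 8.84 CPM (-1.95). Both are also known as genes induced by hypoxia. Among others picked out after their values were seen, Fundc1, a further mitochondrial receptor, was at -0.85, Ncoa4, the ferritin receptor, at -1.09 and Stbd1, a glycogen receptor, at -1.79. Tbk1, the kinase that phosphorylates p62 and optineurin, rose by 0.51 on the log2 scale and Nufip1, a ribosome receptor, by 0.53.

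The Spearman correlation of genomic span with log2 fold change was -0.00448 across the 45 genes and -0.00585 across 14687 genes with a span, given as a description since genes share the same 6 libraries. A rank correlation can miss a trend that changes direction along the span. With genomic span as an offset, Atg7 went from -0.64 to -0.09 and Tfe3 from -0.66 to -0.88.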
